A study of Danio rerio with 6 samples.

Results

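Among 23959 CTCF sites that both WT libraries of zebrafish embryos at 48 hours post fertilization (hpf) held, 822 (3.43%) had no CTCF peak in either WT library at 24 hpf. These 822 are called 48 hpf only sites here. A site was a merged region in which peaks of both WT 48 hpf replicates overlapped by at least 1 bp, and a 48 hpf only site was one that no peak of either WT 24 hpf replicate overlapped by 1 bp or more. The peak lists at 24 and 48 hpf therefore chose the members, and their strength at these stages is given as a description. The name says that a peak was not listed at 24 hpf, which is not the same as absence of binding.

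CTCF is a zinc-finger DNA-binding protein that marks the borders of topologically associating domains and the anchors of chromatin loops. It recognizes a long motif whose orientation matters, and it halts cohesin as that complex extrudes a loop of chromatin. In zebrafish, the interval sampled here covers the pharyngula period and the beginning of hatching, when organs that were laid down earlier grow and differentiate.

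CTCF was mapped by ChIPmentation, a chromatin immunoprecipitation whose sequencing adapters are inserted by the transposase Tn5 while the chromatin is still on the beads, with an antibody against endogenous zebrafish CTCF. The 3 groups were *ctcf*-/- embryos at 48 hpf, WT embryos at 48 hpf and WT embryos at 24 hpf, with 2 libraries each. All libraries came from pooled whole embryos, so a peak is an average over every cell type of the animal. The *ctcf*-/- embryos are zygotic knockouts of 1 CRISPR-Cas9 deletion allele that leads to a premature stop codon, and they carry CTCF protein from the mother early in development. The labels do not say whether the 2 libraries of a group came from separate clutches.

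The 6 lists held 162429 peaks. Depth is given here by the genome background, in tags per 10 kb. It was taken as the lowest local background solved at any peak of a list, with the narrowest peak width as the fragment length. As a lowest value over listed peaks, it can lie above the background that the peak caller used. The genome background was 8.50 and 4.00 in the *ctcf*-/- libraries and 19.8 and 17.9 in the WT 48 hpf libraries. In the WT 24 hpf libraries it was 44.0 and 12.4. Each of these values, 4.00 included, is read as an upper limit. The lists held 2717 and 1706 peaks in *ctcf*-/- embryos, 31014 and 33130 in WT embryos at 48 hpf, and 67512 and 26350 in WT embryos at 24 hpf. The WT 24 hpf libraries thus stood apart from each other: replicate 1 was the deepest of the 6 and held the longest list, and replicate 2 was shallower than both WT 48 hpf libraries. Of all WT 48 hpf sites, 22642 (94.5%) had a peak in WT 24 hpf replicate 1 and 18414 (76.9%) had one in replicate 2.

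The 48 hpf only sites were weak peaks at 48 hpf. Their fold enrichment, the number of tags piled up at the summit over the local background of the same library, had a median of 7.65 in WT 48 hpf replicate 1 and of 7.70 in replicate 2. Sites with a 24 hpf peak had medians of 11.5 and 11.6. The pileup itself had a median of 11 tags in each replicate at the 48 hpf only sites and of 22 tags in each at the sites with a 24 hpf peak. The 48 hpf only sites were also lower in −log10 q, with medians of 9.67 and 9.79, against 20.2 and 20.2 at the other sites. They were narrower as well, with a median width of 225 bp, against 321 bp.

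The range among the 822 sites was wide. Fold enrichment ran between 2.85 and 20.8 in WT 48 hpf replicate 1 and between 3.21 and 25.1 in replicate 2, and the pileup between 5 and 63 tags and between 4 and 53 tags. A −log10 q of at least 10 in both lists was reached by 233 of them (28.3%), against 75.7% of the sites with a 24 hpf peak. A −log10 q under 5 in at least 1 list was found at 40 (4.87%), against 1.10%. A small set of the 48 hpf only sites was therefore barely past the threshold of the lists in a replicate, and a larger set was well past it in both.

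The 2 WT 48 hpf replicates were then compared at these weak sites. Fold enrichments of the replicates lay within 1.5 times of each other at 730 of the 48 hpf only sites (88.8%) and at 90.5% of the sites with a 24 hpf peak, and were over 2 times apart at 6 sites (0.730%), against 0.778%. Members had to be listed in both replicates, and their quartiles were 6.71 and 8.95 in replicate 1 and 6.38 and 9.07 in replicate 2. In so narrow a range, the share within 1.5 times says little about agreement. The replicates ranked the members less alike than the other sites: Spearman's rho of fold enrichment between replicates was 0.40 across the 822 sites and 0.82 across the 23137 others, as a description over sites that share libraries and, for the members, a narrower range of strength. Summits of the replicates were a median of 32 bp apart, against 22 bp at the other sites, and lay within 50 bp at 555 of the 48 hpf only sites (67.5%), against 77.5%. Summits over 100 bp apart were found at 84 (10.2%), against 7.20%. The regions themselves were simple, since 819 of the 822 consisted of 1 peak of each replicate.

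**Figure D1:**
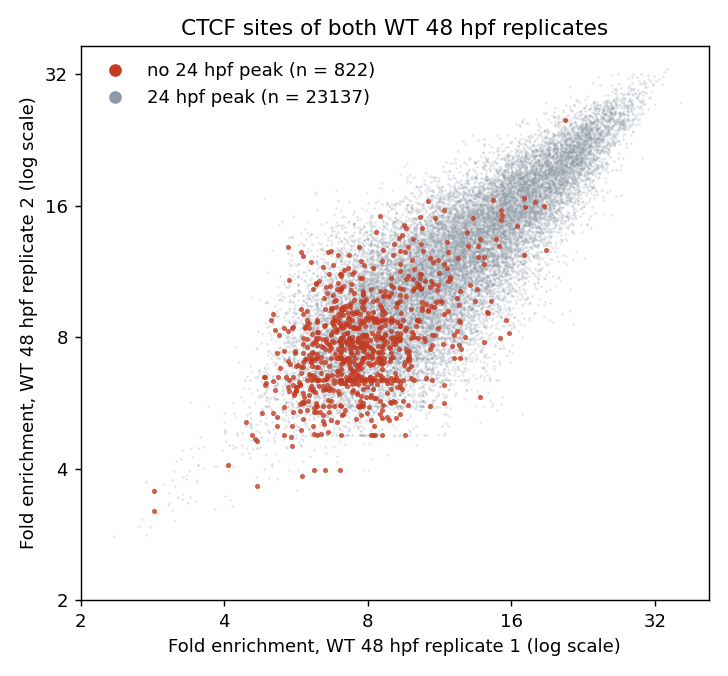
Fold enrichment of each WT 48 hpf site in replicate 1 (x axis) and in replicate 2 (y axis), both on log scales, with 1 point a site. The 822 sites with no 24 hpf peak gather at the weak end of the cloud of 23137 other sites, around their medians of 7.65 and 7.70, and a few reach past 16.

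To place the sites within their own lists, fold enrichment was turned into a percentile within each WT 48 hpf list. The 48 hpf only sites had median percentiles of 28.5 and 33.2 in replicates 1 and 2, and the sites with a 24 hpf peak had medians of 62.1 and 64.5. Only 74 (9.0%) were past the median peak of both lists, against 56.0% of the other sites, while 147 (17.9%) were past it in 1 list and 601 (73.1%) in neither. When all 23959 sites were cut into deciles by their mean percentile, the 48 hpf only sites made up 12.2% of the weakest decile (292 sites), 8.85% of the second (212), 5.97% of the third (143) and 0.0417% of the strongest (1 site). The 3 weakest deciles held 647 of the 822 (78.7%), the 5 strongest held 53 (6.45%) and the 3 strongest held 12 (1.46%).

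**Figure D2:**
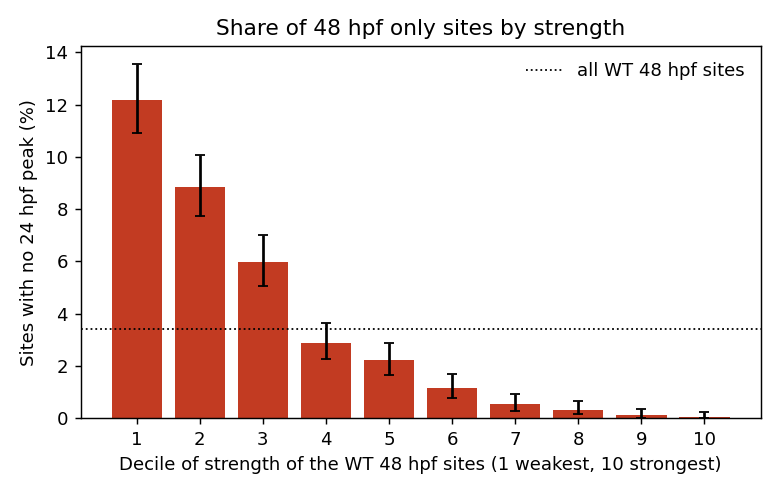
Share of the WT 48 hpf sites with no 24 hpf peak in each decile of strength, from the weakest (1) to the strongest (10), in percent with exact 95% binomial intervals that cover counting error only. The share is 12.2% in the weakest decile and 0.0417% in the strongest, and the dotted line marks 3.43%, the share of all sites.

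Sites missing from only 1 of the 24 hpf lists lay between the 48 hpf only sites and the sites of all 4 WT lists. The median of the mean percentile was 30.6 at the 822 sites with no 24 hpf peak, 38.3 at the 4723 sites (19.7%) with a peak in WT 24 hpf replicate 1 only, 40.9 at the 495 sites (2.07%) with one in replicate 2 only, and 69.5 at the 17919 sites (74.8%) with a peak in both. Pileup in WT 48 hpf replicate 1 followed the same order, with medians of 11, 13, 15 and 26 tags. The 48 hpf only sites were thus the weakest of 4 classes, and closer in strength to the sites of a single 24 hpf list than these were to the sites of both.

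**Figure D3:**
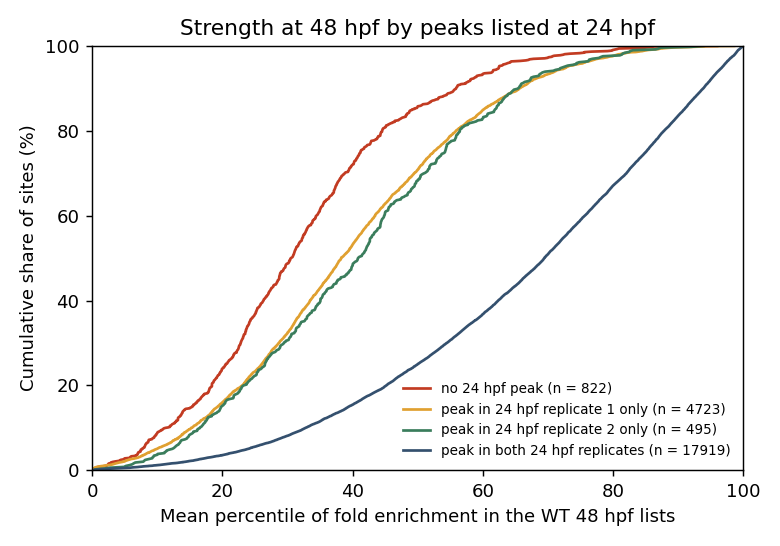
Cumulative share of sites (y axis, percent) by the mean percentile of fold enrichment in the WT 48 hpf lists (x axis), with 1 line for each class of peaks listed at 24 hpf. The line of the 822 sites with no 24 hpf peak lies farthest to the left (median 30.6), the lines of the sites with a peak in 1 replicate follow (38.3 and 40.9), and that of the sites of both replicates is farthest to the right (69.5).

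Depth was then set beside the choice of these sites. At the 17919 sites with a peak in all 4 WT lists, the pileup in WT 24 hpf replicate 1 was a median of 1.51 times that in WT 48 hpf replicate 1 and 1.54 times that in replicate 2, and the pileup in WT 24 hpf replicate 2 was 0.643 and 0.656 times as high. Scaled by these ratios, the pileups of all 822 members were past the lowest −log10 p of the list of WT 24 hpf replicate 1. For the shallower replicate 2, 789 (96.0%) and 745 (90.6%) were past it, depending on the 48 hpf replicate that was scaled. Over all 23959 sites, the shares past it were 99.99% and 99.96% for replicate 1, and 98.7% and 97.3% for replicate 2. Nearly every site was thus past it, and the members were no exception for replicate 1 and slightly below all sites for replicate 2. Of all sites that were past it in this way, 94.5% were in fact listed in replicate 1 and 77.4% or 77.9% in replicate 2. Counting only the 23049 sites past it in both 24 hpf replicates from both 48 hpf replicates left 720 members (3.12%). Since members were selected on a peak in both 48 hpf lists and on none at 24 hpf, these counts describe how the choice was made, and the scaled pileup is what a site of the usual ratio would have had. The 17919 reference sites were chosen for a peak in both 24 hpf lists and were stronger than the members. Their median pileup at 48 hpf was 26 tags in each replicate, against 11, so their ratios may run high for weak sites. Whether depth kept the members off the 24 hpf lists was not tested.

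The rule rests on an overlap of a single base, and the sites at its edge show what that means. Just inside it, a site at chr21:10813728-10813985 abutted a peak of WT 24 hpf replicate 1 with 0 bp between them, and sites at chr10:36436019-36436237 and chr13:49667676-49667957 lay 4 and 6 bp away from one. Their mean percentiles were 56.1, 18.0 and 33.6. Just outside it, sites at chr17:24868910-24869196, chr22:1502717-1503004 and chr24:28363841-28364047 overlapped a 24 hpf peak by 1, 2 and 3 bp, with mean percentiles of 31.1, 32 and 17.3. All coordinates are those of the GRCz10 assembly. These 6 sites overlap in strength, and their class is set by a few bases.

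Distances to 24 hpf peaks were measured next. A peak of either WT 24 hpf replicate lay within 100 bp of 44 (5.35%), within 1000 bp of 198 (24.1%) and within 10000 bp of 619 (75.3%), and 6 were on sequences with no 24 hpf peak. A 24 hpf peak other than those overlapping the site itself lay within these distances of 2.45%, 20% (19.5 to 20.5%) and 70.1% (69.5 to 70.7%) of the sites with a 24 hpf peak. Within 100 bp, the exact 95% interval of the members was 3.92 to 7.12%, against 2.25 to 2.65% at the other sites. The intervals of the members were 21.2 to 27.2% within 1000 bp and 72.2 to 78.2% within 10000 bp. Their shares were thus slightly higher within 1000 and 10000 bp, and more clearly higher within 100 bp. The rule shapes this comparison, since a peak that overlaps a site is not counted for the other sites and is barred for the members. The median distance to the nearest 24 hpf peak was 3529 bp, with quartiles of 1082 and 9496 bp and a largest value of 205255 bp. It was 3649 bp to the nearest peak of the long list of replicate 1 and 13641.5 bp to the nearest of replicate 2. Without the 198 sites that had a 24 hpf peak within 1000 bp, 624 sites were left, with a median of the mean percentile of 30.8.

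The strongest 48 hpf only site was at chr15:24741077-24741305. Its fold enrichment was 20.8 and 25.1 in the WT 48 hpf replicates, with pileups of 36 and 48 tags and percentiles of 93.3 and 98.7, and its summits coincided (0 bp apart). The nearest peaks of the WT 24 hpf replicates were 5234 and 5267 bp away, and scaled by the usual ratios its pileup in WT 48 hpf replicate 1 corresponded to 54.3 and 23.1 tags at 24 hpf. It had no peak in *ctcf*-/- embryos. It was the only member in the strongest decile of sites.

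The next members by mean percentile were at chr6:40720565-40720804 (fold enrichment 18.7 and 16), chr11:35442884-35443275 (17.9 and 16.3), chr3:1136228-1136563 (17.1 and 16.7) and chr16:42782591-42782795 (17.1 and 15.9). Their mean percentiles were 86.3, 85.9, 85.2 and 84.2, and their nearest 24 hpf peaks were 3215, 13298, 6753 and 18478 bp away. None of these 4 had a 24 hpf peak within 1000 bp. The site at chr16:42782591-42782795 was also the one of these 4 with the lowest pileup, 26 and 24 tags.

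The other 5 of the 10 strongest were at chr19:25173790-25174039, chr11:39369002-39369256, chr4:12028918-12029257, chr3:17933554-17933800 and chr18:34822404-34822629, with mean percentiles of 80.9, 80.7, 80.3, 79.9 and 79.9. A 24 hpf peak lay within 1000 bp of 3 of the 10, namely at 252 bp from chr11:39369002-39369256, at 201 bp from chr4:12028918-12029257 and at 512 bp from chr18:34822404-34822629. The site at chr4:12028918-12029257 had the highest pileup in replicate 1 among the 10, 50 tags there and 45 tags in replicate 2, on local backgrounds of 7.49 and 8.64 times the genome background. The site at chr18:34822404-34822629 differed most between replicates, with fold enrichments of 18.9 and 12.7. No peak of either *ctcf*-/- replicate overlapped any of the 10.

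Peaks in *ctcf*-/- embryos were not used to choose the sites, and few members had one. A peak of either *ctcf*-/- replicate overlapped 7 of the 822 48 hpf only sites (0.852%, exact 95% binomial interval 0.343 to 1.75%), against 1992 of the 23137 sites with a 24 hpf peak (8.61%, 8.25 to 8.98%). Over all WT 48 hpf sites the share was 8.34%. All 7 members were in the list of *ctcf*-/- replicate 1 and 2 were in that of replicate 2. Peaks of both *ctcf*-/- replicates overlapped 2 members (0.243%, 0.0295 to 0.876%) and 798 other sites (3.45%), with 3.34% over all sites. The intervals cover counting error only, sites are not replicates, and both *ctcf*-/- libraries were shallower than the WT libraries at the same stage.

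Among the 4 classes, the share at a *ctcf*-/- peak was 0.852% with no 24 hpf peak, 2.56% with a peak in WT 24 hpf replicate 1 only, 1.01% with one in replicate 2 only (5 of 495 sites) and 10.4% with a peak in both. The interval of the 48 hpf only sites (0.343 to 1.75%) overlapped that of the sites of replicate 2 only (0.329 to 2.34%), and it overlapped neither that of the sites of replicate 1 only (2.13 to 3.05%) nor that of the sites of both (9.97 to 10.9%).

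The shares were then compared among sites of like strength. Within the weakest quintile of the WT 48 hpf sites, a *ctcf*-/- peak overlapped 5 of 504 members (0.992%, 0.323 to 2.3%) and 4.87% of the sites with a 24 hpf peak (4.25 to 5.56%). In the second quintile it overlapped 1 of 212 members (0.472%), against 1.99%, and in the third 1 of 81 (1.23%), against 3.10%. The intervals did not overlap in the weakest quintile and overlapped in the second and the third. Within the weakest quintile, most of the *ctcf*-/- peaks were in its lower decile. A *ctcf*-/- peak overlapped 4 of 292 members and 178 of 2104 other sites in the weakest decile. It overlapped 1 of 212 members and 31 of 2184 other sites in the second decile. In the fourth and the strongest quintile, 0 of 21 and 0 of 4 members had a *ctcf*-/- peak, which allows shares of up to 16.1% and 60.2% by the exact interval, so that a difference from the 7.04% and 25.3% of the other sites was not detectable with so few members in the fourth, nor in the strongest.

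**Figure D4:**
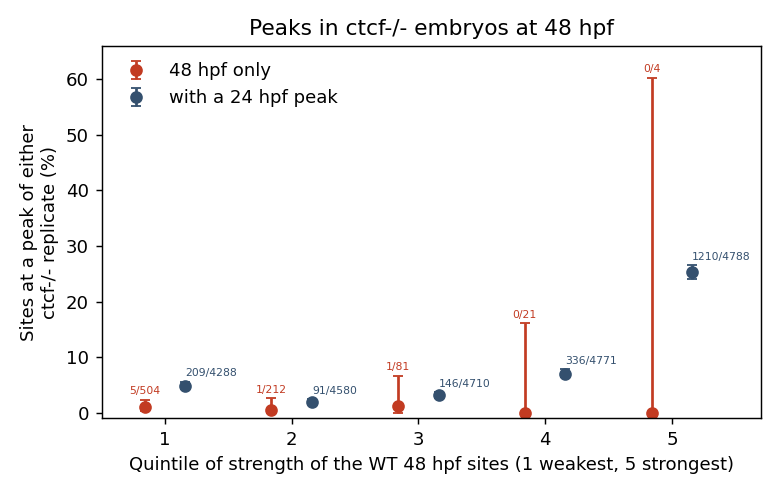
Share of WT 48 hpf sites overlapped by a peak of either *ctcf*-/- replicate (y axis, percent), in quintiles of strength at 48 hpf (x axis), for 48 hpf only sites and for sites with a 24 hpf peak, with exact 95% binomial intervals and the counts beside each point. In the weakest quintile the share is 0.992% (5 of 504) against 4.87%, and the wide intervals of the members in the strong quintiles rest on 21 and 4 sites.

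The local background, which the fold enrichment divides by, also moved with this share. The median local background was 1.82 and 1.90 times the genome background at the 48 hpf only sites in the WT 48 hpf replicates, against 3.29 and 3.51 times at the other sites. This background was solved from the same library, and no input control is named, so tags of a site and of its neighbours may enter it. It may thus not be independent of the pileup, a median of 11 tags at the members and 22 at the other sites. The local background was at or just above the genome background in replicate 1 at 86 members (10.5%), against 2.37%. Where it was under 5 times the genome background, 3 of 731 members had a *ctcf*-/- peak (0.410%, 0.0847 to 1.19%), against 3.10% of the other sites (2.85 to 3.38%). Between 5 and 20 times it was 2 of 83 (2.41%, 0.293 to 8.43%), against 21.6% (20.5 to 22.6%), and at 20 times or more 2 of 8 (25%, 3.19 to 65.1%), against 77.7% (72.1 to 82.5%). The intervals did not overlap in any of these 3 classes of background. Among members, 7 sites in all, and among the other sites, the share was highest on the highest background.

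With strength and background, which may not be independent, held together, the shares came closer. Among sites of the 2 weakest quintiles with a local background under 5 times the genome background, a *ctcf*-/- peak overlapped 3 of 635 members (0.472%, 0.0975 to 1.37%) and 78 of 7359 other sites (1.06%, 0.839 to 1.32%), and these intervals overlapped. This stratum held most of the members, and its overlap rests on 3 members with a *ctcf*-/- peak, with the share of the members still the lower. The intervals did not overlap in the weakest quintile or in any class of background taken alone. They cover counting error only and do not settle whether the shares differ.

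The 2 members with peaks in both *ctcf*-/- replicates were unlike each other. The site at chr20:55336459-55336992 was 534 bp wide and reached fold enrichments of 8.82 and 7.93 in the *ctcf*-/- replicates and of 14.2 and 9.14 in the WT 48 hpf replicates, on pileups of 23 and 11 tags and of 44 and 18 tags. A peak of WT 24 hpf replicate 2 lay 177 bp away from it and one of replicate 1 lay 943 bp away. The second site was at bases 2256 to 2695 of an unplaced scaffold. Its fold enrichments were 8.83 and 6.89 in the *ctcf*-/- replicates and 5.58 and 5.41 in the WT 48 hpf replicates. Its pileups were 49 and 14 tags in the *ctcf*-/- replicates and 30 and 20 tags in the WT 48 hpf replicates. Its local background in WT was 16.2 and 11.3 times the genome background, its WT summits were 230 bp apart, and a 24 hpf peak lay 57 bp away. On the first site the fold enrichment was lower in *ctcf*-/- libraries than in WT, and on the second it was higher, though fold enrichment is not scaled between libraries.

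The 5 members with a peak in *ctcf*-/- replicate 1 alone were at chr13:26050473-26050691, chr13:38805530-38805711, chr14:19790505-19790685, chr4:66546460-66546665 and chr8:34835485-34835716, and were named because they were so few. Fold enrichment in that library was 5.81, 7.33, 3.06, 8.73 and 4.06. The sites on chromosomes 14 and 8 stood on the highest backgrounds, 76.4 and 27.3 times the genome background in WT 48 hpf replicate 1. The site at chr14:19790505-19790685 combined that background with the lowest fold enrichment of all 822 members, 2.85 and 3.21 in the WT 48 hpf replicates.

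Along the genome, the 48 hpf only sites were spread over all chromosomes. Chromosomes 1 to 25 held 798 of them, unplaced scaffolds 22 of the 466 sites found there, and the mitochondrial sequence 2. Per chromosome, the share of WT 48 hpf sites that were 48 hpf only ran between 2.14% on chromosome 21 (19 of 889 sites, exact 95% interval 1.29 to 3.32%) and 4.42% on chromosome 14 (37 of 838, 3.13 to 6.03%). The interval held the overall 3.43% on 24 of the 25 chromosomes and lay under it on chromosome 21. With 25 intervals at 95%, a miss by counting error alone is not unusual. Chromosome 7 had the largest number, 47 of 1273 sites.

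**Figure D5:**
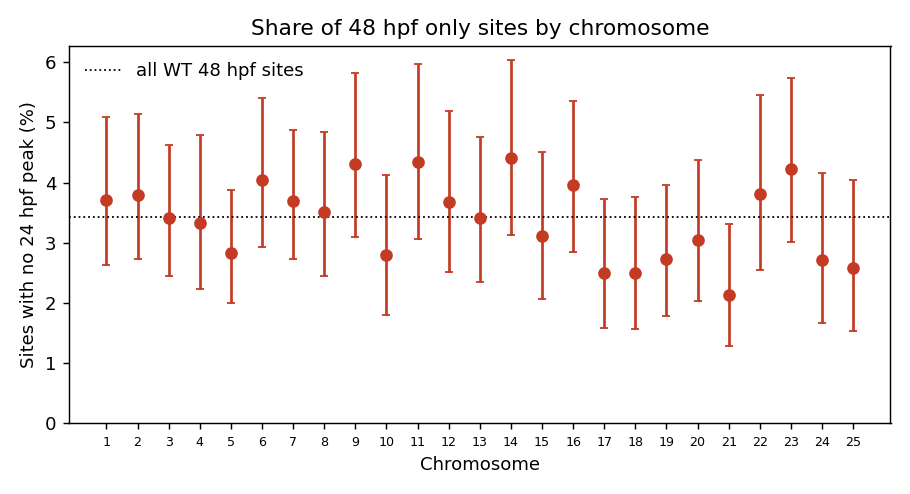
Share of the WT 48 hpf sites of each chromosome (x axis) with no 24 hpf peak (y axis, percent), with exact 95% binomial intervals. The shares lie between 2.14% on chromosome 21 and 4.42% on chromosome 14, around the dotted line at the 3.43% of all sites.

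The only 2 WT 48 hpf sites on the mitochondrial sequence were both 48 hpf only. They lay at bases 304 to 476 and 16108 to 16528, near the 2 ends of the sequence as it is numbered, and were named after their values were seen. Fold enrichment was 5.54 and 4.51 at the first and 4.69 and 4.64 at the second, on local backgrounds of 13.8 and 23.9 times and of 10.1 and 16.4 times the genome background. WT 24 hpf replicate 1 had 1 mitochondrial peak, at bases 3418 to 3591. Both sites were among the weakest percentiles of their lists, at mean percentiles of 2.34 and 0.758.

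The 48 hpf only sites stood mostly apart from each other. What spacing their number alone would give was not tested. The nearest other member was a median of 556434 bp away. When members within 30 kb were linked, the distance used in the study for clustered peaks, 37 members fell into 18 groups and 785 stood alone. The largest group had 3 members, at chr8:34835106-34835315, chr8:34835485-34835716 and chr8:34863778-34863954, with fold enrichments of 5.76, 5.66 and 4.08 in WT 48 hpf replicate 1 on local backgrounds of 26.8, 27.3 and 42.7 times the genome background.

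Set among all CTCF sites, their spacing was close to that of the rest. The nearest other WT 48 hpf site was a median of 16325.5 bp away, against 15185.5 bp for the sites with a 24 hpf peak. No other site lay within 30 kb of 263 members (32%, 28.8 to 35.3%), against 28.3% (27.7 to 28.9%), and another lay within 1 kb of 37 members (4.50%, 3.19 to 6.15%), against 5.56% (5.27 to 5.86%). Both pairs of intervals overlapped, the first only barely, with members slightly more often without a site within 30 kb. Sites with no other site on their sequence count as having none within 30 kb. For 812 members with another site on the same sequence, that nearest site was another member in 27 cases (3.33%), against 3.46% for the sites with a 24 hpf peak, and its mean percentile had a median of 58.8, against 59.8. It was stronger than the member itself in 644 cases (79.3%), against 47.8%, beside the low percentiles of the members themselves. A *ctcf*-/- peak overlapped 66 of these 812 neighbours (8.13%), against 8.12%. The neighbours of the 48 hpf only sites were thus close to those of other sites in strength and in how many were listed at 24 hpf.

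In 3 regions that the study examined in detail, 2 of 73 sites were 48 hpf only (2.74%, exact 95% interval 0.334 to 9.55%), against 3.43% of all sites. The region of chromosome 2 held 0 members among 19 sites, the outermost of which spanned chr2:2800100-3993093. That of chromosome 7, spanning chr7:36717523-37927986, held 1 of 24, at chr7:37590062-37590364, with fold enrichments of 5.89 and 5.69 and pileups of 10 and 8 tags. That of chromosome 9, spanning chr9:1630434-2583414, held 1 of 30, at chr9:2510397-2510581, with fold enrichments of 9.21 and 8.20, pileups of 12 and 10 tags, and 24 hpf peaks 7434 and 5293 bp away. Both sites were past the median of neither list, at mean percentiles of 7.71 and 42.2.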

How the data were processed

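Peak lists of 6 ChIPmentation libraries were used. The authors aligned reads to GRCz10 (danRer10) with Bowtie2, removed distant read pairs and called peaks with MACS2 in each library at an FDR of 0.001. An input control is not named in the sources used here. Fold enrichment (a linear ratio), −log10 p and −log10 q are as the authors deposited them, at the summit and not normalized between libraries. The deposited score was not used.

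The members, lists and comparisons were chosen with earlier results of these data known. Sites were built with pandas 2.3.3 and numpy 2.4.6 in Python 3.11.15. A count with bedtools 2.31.1 also gave 822. The strongest peak of a replicate stood for the site. Pileup and local background were solved from fold enrichment and −log10 p under the Poisson model of the caller (pseudocount 1, scipy 1.17.1). This gave a whole number of tags for 100% of peaks within 0.002 of −log10 p, with a second solution for up to 2.34% of a list. The steps were tested on simulated data. Exact binomial intervals are at 95%. No test between groups was run, since sites are not replicates and each group has 2 libraries.

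Sites were named by rule: the 10 strongest members, members at peaks of both *ctcf*-/- replicates, the largest linked group, 3 just inside and 3 just outside the rule, and members in 3 regions. Sequence and genes of GRCz10 were not used here, so motifs, sequences and gene positions of the sites were not analysed here.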

Additional observations from a re-analysis of the deposited data

How the results depend on the processing

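The number of 48 hpf only sites followed from which lists were used. It was 5545 without WT 24 hpf replicate 1, 1317 without WT 24 hpf replicate 2, 4154 without WT 48 hpf replicate 1 and 3183 without WT 48 hpf replicate 2, against 822. It was 3277 with the list of WT 24 hpf replicate 1 shortened to the length of replicate 2, 5997 when only 24 hpf sites of both replicates counted, 6420 with a peak of either WT 48 hpf replicate and 233 with a −log10 q of at least 10. The median of the mean percentile (30.6) was 37.5 when only 24 hpf sites of both replicates counted, 17.8 with either 48 hpf replicate and 49.5 with a −log10 q of at least 10, and ran between 17.4 and 37.1 when 1 library was left out. The share at a *ctcf*-/- peak (0.852%) was 2.18% when only 24 hpf sites of both replicates counted and 0.243% for *ctcf*-/- sites of both replicates, and ran between 0.243 (without *ctcf*-/- replicate 1) and 2.31% (without WT 24 hpf replicate 1) when 1 library was left out. Linking within 10 kb left 14 members in groups and within 100 kb 104, against 37. The cause of these shifts was not tested. Some follow from the setting itself: shorter lists overlap fewer sites, longer links join more, and a floor on −log10 q removes weaker peaks. Each result had its own limit. Of the alternatives for the number, 6 of 14 stayed within 1.5 times. For the percentile, 7 of 13 stayed within the spread of replicates (SD 3.31). For the share, 12 of 16 stayed within the counting interval.

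No paired analysis was possible, since the labels pair no library with one of another group. Every result is a count, share or median over sites and comes from no test. Counts of the CTCF core motif and of start sites at the members were not run, since sequence and annotation of GRCz10 were not used here. WT 24 hpf replicate 2 and both *ctcf*-/- libraries had lower genome backgrounds than the WT 48 hpf libraries, and what greater depth there would list was not tested.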
